A study of Mus musculus with 4 samples.

Results

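The SST interactions described here are H3K27ac-marked chromatin contacts for which neither end was found at any contact end of VIP interneurons. SST interneurons, which make somatostatin, and VIP interneurons, which make vasoactive intestinal peptide, are separate classes of cortical inhibitory neuron, the first mainly targeting dendrites of excitatory cells and the second mainly targeting other interneurons. An interaction joins a pair of anchors, which are stretches of chromatin found near each other in the nucleus. The contact assay used enriches for H3K27ac, and whether both anchors of a pair carry the mark is unknown here. The members were chosen by anchor positions alone, as the SST interactions whose anchors both failed to overlap, by 1 bp, any anchor of the VIP list. They numbered 3325 of the 8278 SST interactions, or 40.2% (exact 95% binomial interval 39.1 to 41.2%), out of 15011 interactions in both lists. The intervals given here cover counting error only and treat interactions as independent, although many share an anchor.

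Both groups were nuclei from adult mouse cortex on a C57BL/6 background. The SST group had the genotype Sst-cre; Sun1 and the VIP group Vip-cre; Sun1, so each holds the nuclei in which that driver switched on the Sun1 tag used for capture by INTACT, a method that pulls out tagged nuclei. The labels name 2 samples per cell type. Each cell type was represented by a single list, deposited with replicate 1, and whether it pools both replicates is unknown here, so no spread between animals could be measured and no test between cell types was run. The number of animals in a sample and the read depth behind a list are unknown here. Membership itself was set by comparing these lists, so the counts of members and their absence from VIP describe the choice and are not findings.

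H3K27ac marks active enhancers and promoters. Enhancers can lie far from the genes they act on, and contacts between acetylated stretches are widely used to pair them with candidate promoters. Transcription factors, adhesion molecules and ion channels are among the genes by which interneuron classes are known to differ. Coordinates are mm9. An annotation of that build was not used here, so no anchor was assigned to a promoter, exon or intron, no sequence was read, and the marker gene lists that would check the cell types were not counted. Where a gene is named beside a region below, the name is background knowledge of where that gene lies in the mouse genome and was not checked against an annotation.

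Joined through common anchors, the 3325 interactions and their 2757 anchors formed 571 connected networks. Most networks were small, and a few large ones held much of the total. A lone interaction made up 222 networks, or 6.68% of members, while the 39 networks of 20 or more interactions held 1429 interactions, or 43.0%. The 10 largest networks held 648 interactions, which was 19.5% of members and 7.83% of the whole SST list. The 53 largest, 9.28% of networks, were enough to hold 50.2% of members.

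The 39 large networks lay on 17 chromosomes. They joined 10 to 41 anchors each, with a median of 16, and spanned 444 to 2841 kb from the first to the last anchor, with a median of 993 kb. Since no listed SST interaction of this class was longer than 999.7 kb, spans above that length arise from chains of interactions. Anchors filled 12.0 to 58.2% of the span, with a median of 28.6%.

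**Figure D1:**
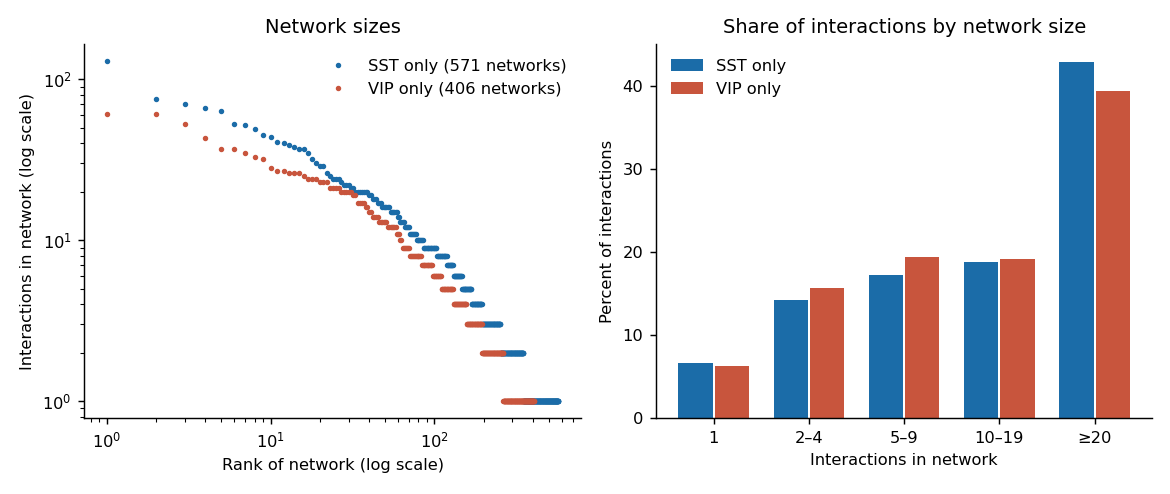
Left, interactions in each network against its rank by size (both axes on a log scale) for SST-only networks (blue) and VIP-only networks (red). Right, percent of the class's interactions held by networks of each size. Networks of 20 or more interactions held 43.0% in SST and 39.5% in VIP, and lone interactions held 6.68% and 6.26%.

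The mirror class, VIP interactions with neither anchor in the SST list, was compared by the same steps. It held 2285 of 6733 VIP interactions, 33.9% (32.8 to 35.1%), in 406 networks. Its largest networks had 61 interactions each, against 130, 75, 70, 66 and 64 for the first 5 in SST. The 31 VIP networks of 20 or more interactions held 39.5% of that class. The VIP list is the shorter of the pair, and depth and cell type cannot be told apart here.

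In these lists, a smaller share of SST interactions with both ends in VIP sat in large networks, a difference that was not tested. These 2449 interactions formed 422 networks, of which 24 had 20 or more interactions and held 31.9% of that class. The largest had 67 interactions. For the 2504 SST interactions with 1 anchor in VIP the share was 26.7%, and the largest network had 99. VIP showed the same order, with 39.5% for neither anchor in SST, 33.7% for both and 27.4% for 1. The classes differ in size, and the part of class size in these shares was not tested. Interactions per anchor were similar, at 1.21 for members and 1.23 for interactions with both anchors in VIP.

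The largest network covered chromosome 17 from 9386827 to 12228036, with 130 interactions among 41 anchors. This is the region of the Parkin gene, Park2, which encodes a ubiquitin ligase that acts in the removal of damaged mitochondria. Its most connected anchor, 12099438 to 12173120, was 73.7 kb wide and took part in 20 interactions, 19 of them with anchors at lower coordinates. The next, 11854422 to 11887807, took part in 17. No pair of anchors dominated, since 94 of the 130 interactions involved neither of these. Both lay toward the upper end of the span, out of reach of its lower part for interactions of at most 1 Mb.

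Counting members alone, this network consisted of 2 blocks held together at 1 anchor. Without the anchor 10412709 to 10453768 the members fell into pieces of 92 and 25 interactions. An SST anchor left out of the members, which overlapped the VIP anchor 10489125 to 10515997, had 16 links to the network's anchors. Larger-block anchors such as 11332002 to 11357550, with 15 member links among 16, had no other VIP anchor within 1 Mb. Few anchors of that block had such an extra link. The 16 links therefore came from both blocks, and the split holds for members alone. The VIP list had 7 anchors within the span, all between 9595423 and 10515997, and 10 VIP interactions lay wholly within it. Of these 10, 6 were also listed in SST. Beyond the last VIP anchor, a stretch of 1712 kb held 92 SST members, 70.8% of the network, and no VIP anchor. Of the 130 members, 34 passed over at least 1 VIP anchor. A further 47 SST interactions linked the network to anchors present in VIP. The count depends on how anchors were divided and on long links: with anchors within 5 kb merged the network had 86 interactions, and with both lists limited to 200 kb the largest network was another, on chromosome 16, with 33.

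The next network lay on chromosome 8 from 120543075 to 121871253, with 75 interactions among 27 anchors. The region holds Cdh13, which encodes T-cadherin, an adhesion molecule held at the membrane by a lipid anchor. Its leading anchors, 121515238 to 121551461 and 120805157 to 120817006, took part in 17 and 16 interactions, lay 722 kb apart and were linked to each other. No VIP anchor lay within the span, and no SST interaction left it. The nearest VIP anchor was 97.4 kb beyond its end.

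The network on chromosome 7 from 122254113 to 123376413 had 70 interactions among 36 anchors and was shaped by a pair of anchors. It covers the region of Sox6, a transcription factor needed for SST and parvalbumin interneurons to mature. Its leading anchor, 123165883 to 123191014, took part in 29 interactions, the most of any anchor among the members. All 29 ran to lower coordinates, where most of the network's anchors lay. The anchor 122642471 to 122728442, which was 86.0 kb wide, took part in 26. Both lay 493 kb apart, were linked, and had 20 partners in common.

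Together these anchors took part in 54 of the 70 interactions, or 77.1%, against 27.7% for the leading pair of the largest network. The spans differ, and no listed interaction was longer than 1 Mb. Anchor pairs within that distance numbered 624 of 630 here and 422 of 820 in the largest network. Of all triples of anchors connected through a common partner, 18.4% were closed by the third link, the lowest value among the 39 large networks. The nearest VIP anchor was 2063 kb from the span, the widest separation among the 10 largest networks, and no SST interaction left the network.

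A network on chromosome 8 from 88007492 to 89111702 joined 20 anchors by 66 interactions. Neighbouring anchors at 88774314 to 88818226 and 88829729 to 88879920 took part in 17 and 16 interactions and shared 14 partners. Of its triples, 61.5% were closed. The VIP list had no anchor in the span, and the nearest lay 491 kb away.

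On chromosome 1, from 93807474 to 94372475, 18 anchors were joined by 64 interactions within 565 kb. These were 41.8% of the 153 possible pairs, the highest share among the 10 largest networks, and 65.0% of triples were closed. Anchors filled 58.2% of the span. The leading anchor, 94318450 to 94349069, lay at the far end of the network, and all 15 of its interactions ran to lower coordinates. The nearest VIP anchor was 170 kb away.

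A second network on chromosome 17, from 66557462 to 67983775, had 53 interactions among 21 anchors. The region holds Ptprm, a receptor tyrosine phosphatase that also serves in cell adhesion. Its leading anchor, 67446395 to 67493976, took part in 14 interactions, and 55.3% of triples were closed. The nearest VIP anchor was 1827 kb from the span, so that this network and the one at Sox6 stood farthest from the VIP list among the 10.

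The network on chromosome 9 from 27595938 to 29275130 had more links to anchors that VIP also had than links of its own. This is the region of Opcml and Ntm, which encode adhesion molecules of the IgLON family. It had 52 interactions among 26 anchors, while 71 SST interactions linked its anchors to ones present in VIP. The leading member anchor, 28271959 to 28326276, took part in 21 member interactions and 26 interactions in all, and lay 47.8 kb from the nearest VIP anchor. Within the span the VIP list had 7 anchors and 6 interactions, none of them shared with SST. Of the 52 members, 39 passed over a VIP anchor.

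The anchor overlapping VIP with the most SST interactions in that span took part in 44, of which 22 ran to members' anchors. It was left out of the members because a VIP anchor with 1 interaction overlapped it. Of the 125 SST interactions wholly within the span, 52 were members, 66 had 1 anchor in VIP and 7 had both.

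Chromosome 3 carried a network from 152451192 to 153308718 with 49 interactions among 21 anchors. The anchors 152614812 to 152648581 and 152936485 to 152977695 took part in 17 interactions each and together in 33 of the 49. The VIP list had no anchor there, and the nearest lay 320 kb away.

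On chromosome 14, from 24382075 to 24826241, 17 anchors were joined by 45 interactions in 444 kb, the shortest span of the 39 large networks. The region holds Kcnma1, which encodes the pore-forming subunit of the BK potassium channel, a channel opened by calcium and voltage. The leading anchor, 24693182 to 24734095, took part in 15 interactions. The median distance was 176 kb, the shortest among the 10 networks but near the 182 kb of all members, and 56.5% of triples were closed. The nearest VIP anchor was 517 kb away.

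The last of the 10 lay on chromosome 4 from 130296196 to 132093569, with 44 interactions among 25 anchors. Its anchors at 131360092 to 131395955 and 130797084 to 130836197 took part in 16 and 14 interactions and together in 29. The span contained 2 VIP anchors, at 130537858 to 130552716 and 130928549 to 130944616, and the only VIP interaction within it joined them. Members passing over a VIP anchor numbered 26 of the 44.

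**Figure D2:**
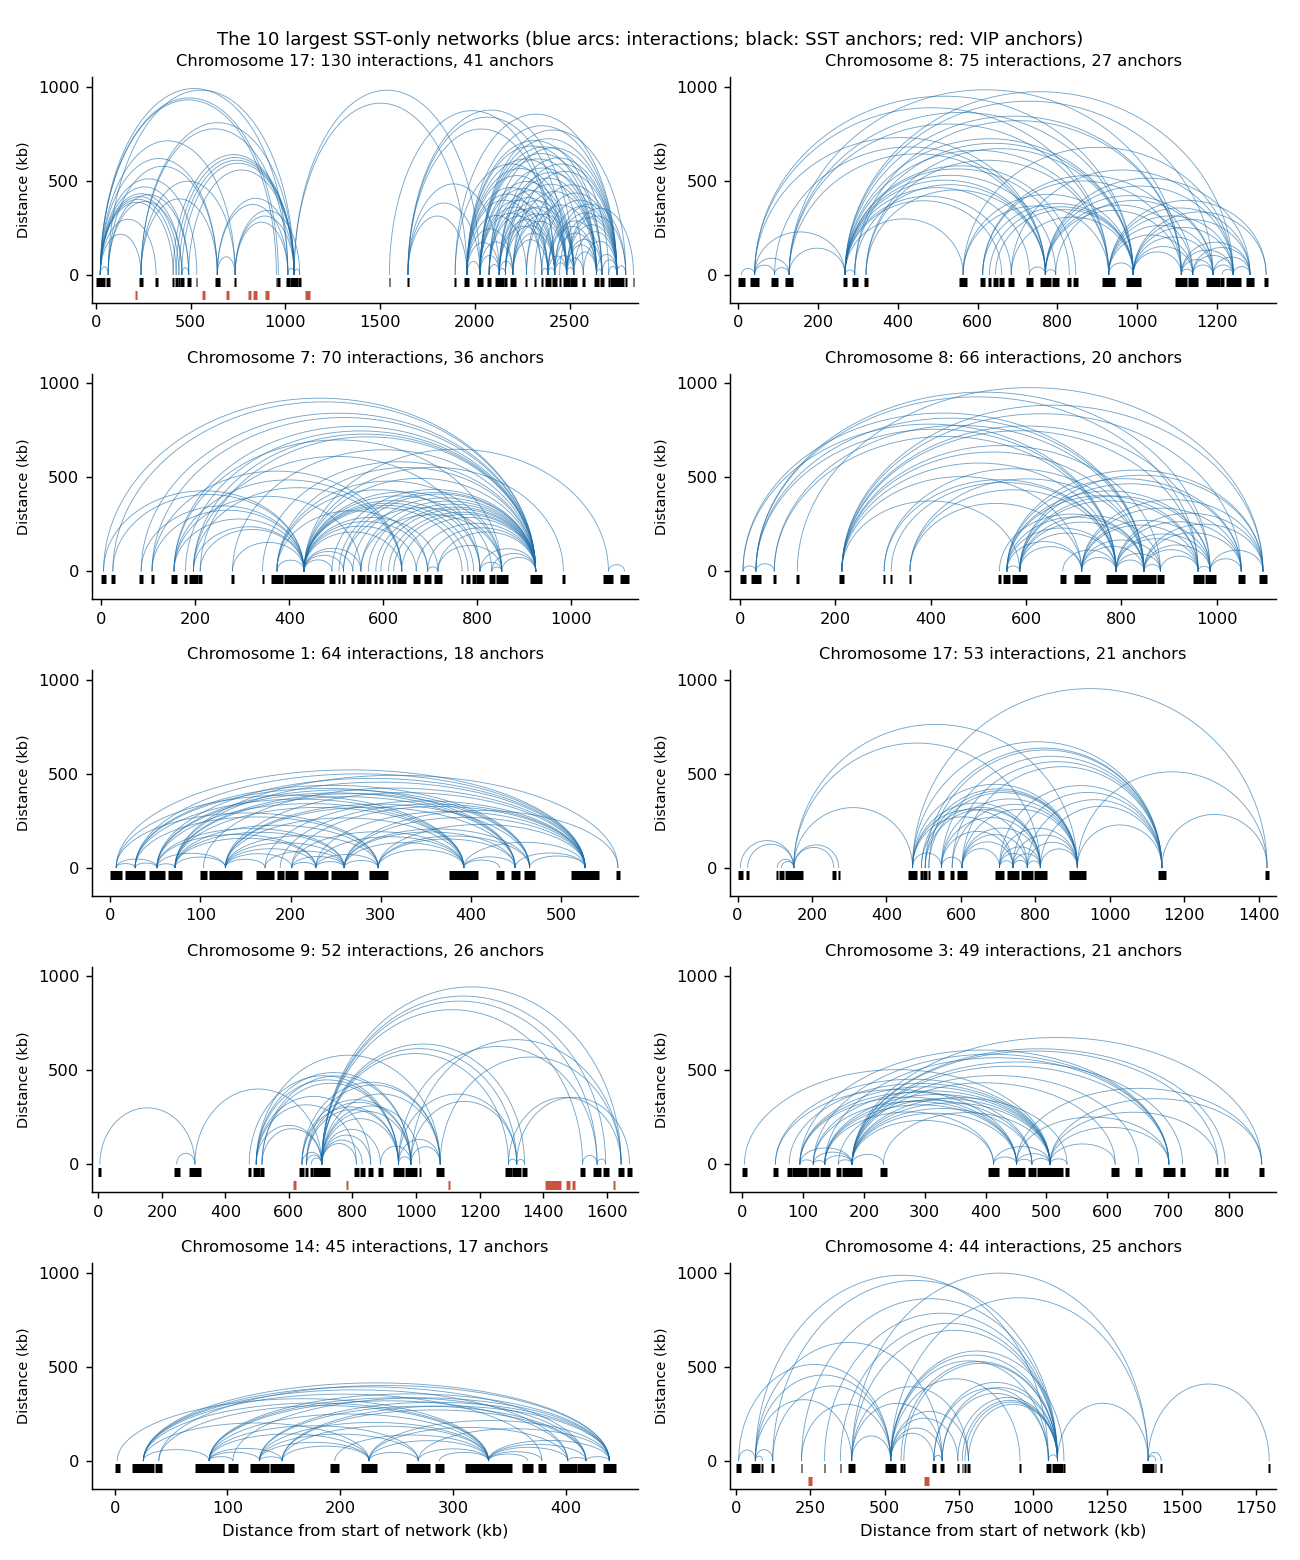
The 10 largest networks, drawn against distance from the start of each network in kb. Blue arcs are member interactions, with the height of an arc equal to the distance between anchor midpoints in kb, black bars are SST anchors and red bars are VIP anchors. Red bars appear in 3 of the 10 panels, on chromosome 17 (130 interactions), 9 and 4.

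Of the 10 networks, 7 had neither a VIP anchor in the span nor an SST interaction leaving it, and these held 422 interactions. Of the 10 largest VIP networks of the mirror class, 2 had both properties. Those were set against the longer list, with 8278 SST against 6733 VIP interactions, and the part of list length was not tested. The leading anchor sent all its interactions to the same side in 2 of the 10 SST networks, at chromosome 7 and chromosome 1. These anchors lay at 82.4% and 93.1% of their spans, with few of the network's anchors beyond them. By the rule used for networks of the longest span, 4 more were described.

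Of these long networks, all but the one on chromosome 10 had VIP anchors within the span. Chromosome 13 from 82079954 to 84762861 spanned 2683 kb with 16 interactions among 13 anchors, and 10 VIP anchors lay within it. Chromosome 1 from 194594247 to 196868136 spanned 2274 kb with 20 interactions and 5 VIP anchors. Chromosome 10 from 112535054 to 114535684 spanned 2001 kb with 10 interactions, contained no VIP anchor and had no interaction leaving it.

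The remaining long network, on chromosome 7 from 97588991 to 99583249, lies at Dlg2, which encodes the synaptic scaffold protein PSD-93. The span held 29 members among 59 SST interactions and, in the VIP list, 17 anchors with 41 interactions. Of those 41, 8 had neither anchor in the SST list and 5 were shared, and of the 59 SST interactions 20 had 1 anchor in VIP and 10 had both. The leading member anchor, 98552543 to 98607954, took part in 14 member interactions and lay 1.57 kb from a VIP anchor, so that here the absence of an overlap rests on a short distance.

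One further anchor was among the 5 most connected. It lay on chromosome 16 from 5979030 to 6020921 and took part in 21 of the 38 interactions of its network, 10 to lower and 11 to higher coordinates. No VIP anchor lay within 1089 kb of it.

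The rule kept VIP anchors off the members' anchors but not out of the stretches between them. The same VIP positions enter both, and a short span leaves little room for a VIP anchor, so these shares are a description. In 466 of 571 networks, 81.6% (78.2 to 84.7%), the span contained no VIP anchor, and in 356 no SST interaction linked the network to an anchor present in VIP. Both held for 343 networks with 1799 interactions, or 54.1% of members. Among the 39 large networks, 22 had an empty span, 22 had no leaving interaction and 20 had both, on 12 chromosomes. Lone interactions had an empty span in 93.2% (89.1 to 96.2%) of cases against 56.4% (39.6 to 72.2%) for large networks, and the median span rose from 50.9 to 993 kb between these classes.

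In the mirror class, 78.8% (74.5 to 82.7%) of VIP-only networks had no SST anchor in the span, and 45.1% of its interactions lay in networks with an empty span and no leaving link. For the 31 large VIP networks the empty share was 45.2% (27.3 to 64.0%). The interval overlaps that of the large SST networks. No link left 9 of the 31 large VIP networks, 29.0%, against 22 of the 39 in SST, 56.4%. Both properties held for 9 in VIP and 20 in SST. These differences were not tested. VIP-only networks were set against the SST list, which is the longer one, and the part of list length was not tested either.

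**Figure D3:**
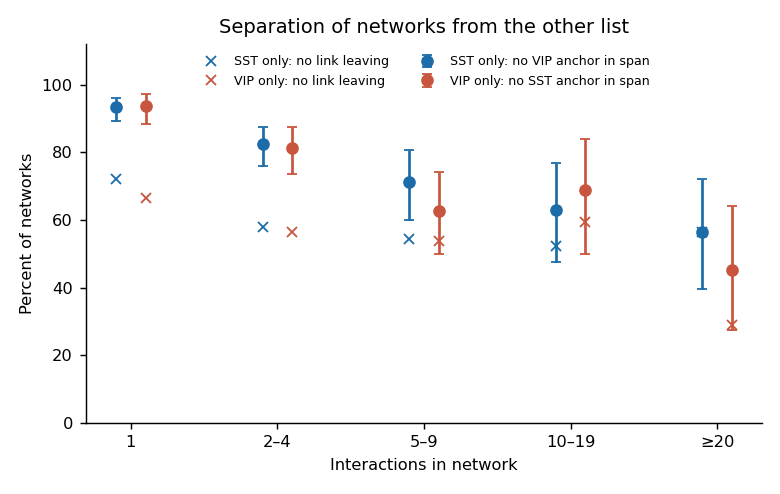
Percent of networks with no anchor of the other list in the span (circles, with exact 95% binomial intervals) and with no link to an anchor present in the other list (crosses), by number of interactions in the network. In SST (blue) the circles fall from 93.2% for lone interactions to 56.4% for networks of 20 or more.

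Since members were chosen for missing every VIP anchor, their distance to the nearest one is a description of the choice. The median distance to the nearest VIP anchor was 479 kb (order-statistic interval 425 to 520 kb) over 2757 anchors, with quartiles of 93.9 and 1436 kb. Of these anchors, 913, or 33.1%, had no VIP anchor within 1 Mb, and 114, or 4.13%, had one within 10 kb. For VIP-only anchors the median distance to the nearest SST anchor was 319 kb (293 to 358 kb), and the SST list is the longer one. At the threshold, the nearest member anchors lay 6, 20, 132, 187 and 489 bp from a VIP anchor, and the SST anchors that overlapped least did so by 259, 361, 677, 741 and 769 bp.

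Anchors with more interactions were wider. Median width was 36.2 kb for the 85 anchors with 10 or more member interactions and 10.9 kb for the 1999 anchors with 1 or 2. The nearest VIP anchor was at a median of 607 kb (417 to 881 kb) from the former and 433 kb (386 to 498 kb) from the latter, with overlapping intervals. A wider anchor meets a 1 bp overlap more easily, and here greater width went with more interactions. The part of width in the counts was not tested.

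Not every SST anchor absent from VIP was part of a member. Of 3689 such anchors, 932 were linked only to anchors present in VIP. The absent anchors were narrower than the 2153 present ones, with medians of 11.4 kb (11.1 to 11.6 kb) and 12.5 kb (12.1 to 12.8 kb). They also had fewer interactions, as 28.7% took part in 3 or more against 44.1%. Anchors of members, which had a link to another absent anchor, had a median width of 12.9 kb (12.6 to 13.3 kb), against 12.7 kb (12.3 to 13.0 kb) for anchors of interactions with both ends in VIP. These intervals overlap.

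Some members crossed chromatin that was in contact in VIP. In 500 members, 15.0% (13.8 to 16.3%), at least 1 VIP anchor lay between the ends without being joined, and up to 13 did. For members of at most 50 kb this share was 0.356% (0.0735 to 1.04%), and for those longer than 600 kb it was 34.1% (29.0 to 39.6%). Conversely, 387 members, 11.6% (10.6 to 12.8%), lay wholly between the anchors of a VIP interaction. That share was 18.6% (16.1 to 21.4%) for the shorter of these distance classes and 3.35% (1.69 to 5.92%) for the longer. Neither was the case for 2555 members, or 76.8%. A longer interaction has more room to pass over an anchor and less to lie inside another interaction, so these shares are a description. In the mirror class, 14.0% passed over an SST anchor and 17.9% lay inside an SST interaction. Between the same distance classes the first share rose and the second fell there too.

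Distances between the anchors of members spanned 6.97 to 999.7 kb, with a median of 182 kb (165 to 200 kb) and quartiles of 49.1 and 393 kb. Interactions with both anchors in VIP were shorter, at 127 kb (114 to 138 kb), and those with 1 anchor in VIP were longer, at 245 kb (217 to 270 kb). The same order was seen in VIP, with 150 kb (135 to 164 kb) for neither anchor in SST, 134 kb (120 to 147 kb) for both and 241 kb (218 to 258 kb) for 1. There the intervals for neither and both overlap. The order did not hold on every chromosome: SST members had the longer median than interactions with both anchors in VIP on 12 of 20 chromosomes, and the shorter median than those with 1 anchor on 14 of 19.

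The difference of 54.5 kb between members and interactions with both anchors in VIP was smaller without the largest networks. With the 10 largest networks of each class left out it was 26.4 kb. With those of members alone left out it was 7.70 kb, a removal that lowers the members' median by its construction. Distance rose with network size, from a median of 34.1 kb (30.0 to 44.6 kb) for lone interactions to 310 kb (298 to 323 kb) for interactions of large networks. Up to 100 kb lay 68.9% of the lone interactions and 23.9% of those in large networks.

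**Figure D4:**
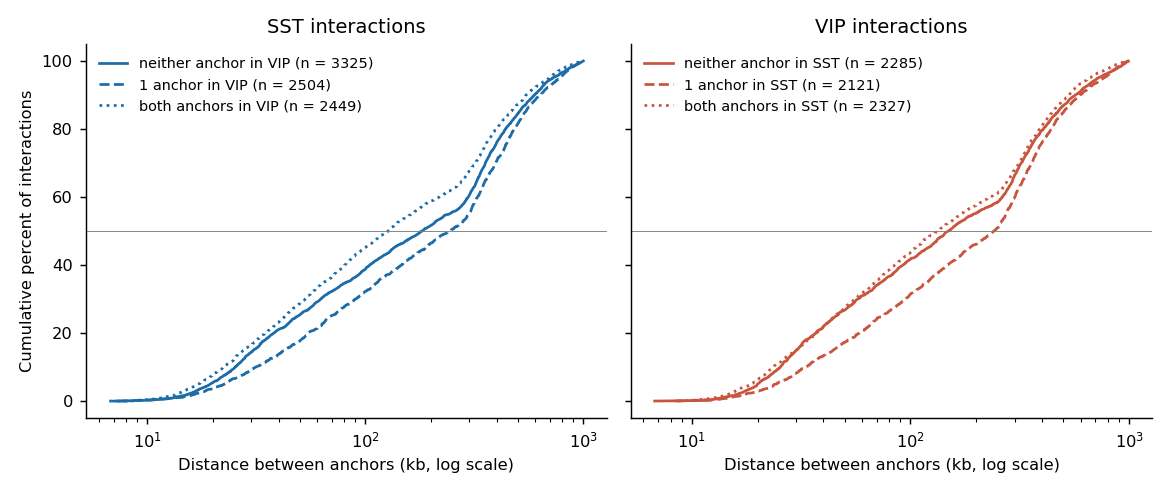
Cumulative percent of interactions against the distance between anchors (kb, log scale) for SST (left) and VIP (right), by how many anchors were present in the other list. The grey line marks the median. Members (solid blue) reach it at 182 kb, between the classes with both anchors (127 kb) and 1 anchor (245 kb) in VIP.

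The share of members among SST interactions differed along the genome. It was highest among autosomes on chromosome 16, with 177 of 277 or 63.9% (57.9 to 69.6%), and chromosome 19, with 99 of 169 or 58.6% (50.8 to 66.1%). The lowest shares were on chromosome 12, with 109 of 446 or 24.4% (20.5 to 28.7%), and chromosome 11, with 143 of 568 or 25.2% (21.7 to 29.0%). VIP-only shares on these chromosomes were 53.3% and 69.0% for 16 and 19, and 29.2% and 24.2% for 12 and 11. The SST share was above the VIP share on 17 of 20 chromosomes, as it was over the whole lists, and by most percentage points among autosomes on chromosomes 17 (45.7% against 20.7%), 6 (40.0% against 17.3%) and 8 (52.3% against 33.5%). Of the 247 members on chromosome 17, 130 belonged to the largest network. Without it the share there was 28.5%, a removal that lowers the SST share by its construction and left the VIP list unchanged. Chromosome X had 6 members among 7 SST interactions (42.1 to 99.6%), too few to place it.

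**Figure D5:**
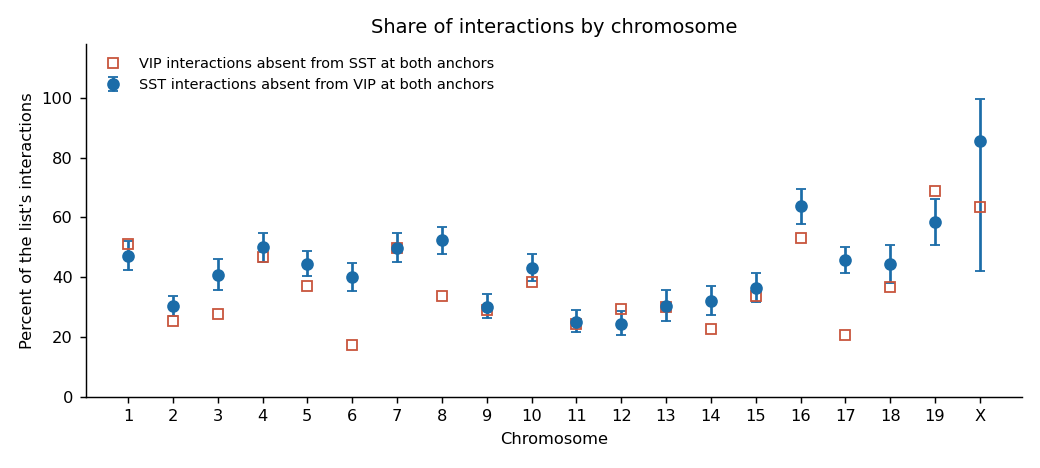
Percent of each chromosome's SST interactions with neither anchor in VIP (blue circles, with exact 95% binomial intervals) and of its VIP interactions with neither anchor in SST (red squares, drawn without intervals). Chromosomes 16 and 19 are high and chromosome 11 is low in both. Chromosome 12 is the lowest in SST, at 24.4%, but stands at 29.2% in VIP. Chromosomes 6 and 17 are lower in VIP than in SST.

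Few spans of SST-only networks overlapped the span of a VIP-only network. Both classes were chosen for missing the other list's anchors, and short spans leave little room to overlap. No expected overlap was computed, so these counts are a description. Of the 571 SST networks, 50 overlapped the span of at least 1 VIP-only network, and 6 of the 39 large networks did. None of the 10 largest did. The nearest VIP-only network lay 60.7 kb from the largest network and 97.4 kb from the one at Cdh13, with 1 and 4 interactions. Near Cdh13 a VIP-only network of 23 interactions, from 122466013 to 123116876, lay 595 kb from the end of the SST network. At Sox6 the nearest VIP-only network was 2063 kb away and had 9 interactions.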

How the data were processed

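H3K27ac HiChIP, a contact assay that enriches for acetylated chromatin, was run on INTACT-purified nuclei cut with MboI, per the labels' protocols. The authors deposited 1 list per cell type, with the chromosome, start and end of both anchors in 6 columns and no read count, score or p-value. HiC-Pro and mm9 are named in the submitters' processing notes. Not given in the sources used here are the caller, its threshold and any pooling of replicates. Depth is unknown.

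Anchors were compared by 1 bp overlap and joined into networks by identical coordinates, with distances taken between midpoints. Shares have exact (Clopper-Pearson) and medians order-statistic 95% intervals. Regions named were the 10 networks with most interactions, the 5 longest, the 5 most connected anchors and the anchors nearest the threshold. The class of interactions and these lists were chosen with earlier results of these data known. Counts of networks without VIP anchors, the structure measures and the split by network size were added after seeing the data. The overlap rule and the joining into networks were tested on simulated lists, and the other measures were not. Tools were networkx 3.6.1, scipy 1.17.1, pandas 2.3.3, numpy 2.4.6 and matplotlib 3.10.9 under Python 3.11.15.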

Additional observations from a re-analysis of the deposited data

How the results depend on the processing

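When a VIP anchor within 10 kb counted as present, members made up 37.6% of the SST list, 9 of the 10 named networks overlapped one of the 10 largest, and the largest had 125 interactions. Limiting both lists to 200 kb left 2018 members, 46.7% of the shorter SST list, and a largest network of 33 interactions, on chromosome 16 from 9578963 to 9998988; the 10 largest then held 12.0% of members, and 5 of the 10 named overlapped one of them. That limit removes long links and the anchors known only through them, by construction. Merging anchors within 5 kb brought the largest network to 86 interactions, and 7 of the 10 named overlapped one of the 10 largest. Median distance of members minus that of interactions with both anchors in VIP was 2.47 kb up to 200 kb, 7.70 kb without the 10 largest networks and 26.4 kb without the 10 largest of both classes, and ranged from 40.0 to 63.5 kb with each chromosome left out. Against 1 anchor in VIP the difference of -62.9 kb became -12.9 kb up to 200 kb and -109.7 kb without the 10 largest networks, and ranged from -76.1 to -45.4 kb over chromosomes left out. VIP interactions within the 10 named spans numbered 17 by both anchors and 32 by either. Networks with an empty span and no leaving link numbered 331 to 489 over 4 alternatives, against 343. For the other shifts the cause was not tested. The counts of empty networks, the share in the 10 largest and the removal from both classes were added after seeing the data. Genes at anchors were not counted, for want of an annotation of this build. No paired analysis was possible because the lists carry no values for separate replicates. Depth is unknown, so an anchor missing from VIP was not listed there, which does not show that it was inactive.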
